A study of Rattus norvegicus with 38 samples.

Results

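The natriuretic peptide genes Nppa and Nppb were followed across 5 regions of failing and healthy rat hearts. Both were taken by their rat Ensembl gene IDs, ENSRNOG00000008176 for Nppa and ENSRNOG00000008141 for Nppb, and are 2 of the 24057 genes measured. Their transcript levels were read in 38 RNA-seq libraries of male Sprague-Dawley rats aged 10 weeks. The failing hearts gave 4 libraries each from the left ventricle (LV), the left atrium (LA), the right atrium (RA), and the inferior (iSAN) and superior (sSAN) parts of the sinoatrial node. The healthy hearts gave 4 libraries from each of the same regions except the left ventricle, which had 2. The protocol in the labels describes a narrowing of the ascending aorta made in pups 1 week old, with hypertrophy of the left ventricle as its result. That text is attached to failing and healthy libraries alike, and the sources used here do not give the treatment of the healthy rats. The titles end in a 4-digit code that recurs across regions, 4 codes for failing and 4 for healthy hearts with none in both, so a batch tied to the codes and the health state cannot be told apart. Values of a group are given in the order of its codes, which for the left atrium is LA_0409, LA_0506, LA_0507 and LA_0508 for failing hearts and LA_0920, LA_0921, LA_1001 and LA_1002 for healthy hearts. Other regions follow with RA, LV (healthy LV_1001 and LV_1002 only), iSAN and sSAN, and healthy node libraries are titled SB for the inferior and ST for the superior part.

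Nppa encodes the precursor of atrial natriuretic peptide and Nppb that of brain natriuretic peptide. Heart muscle cells release both hormones when the chamber wall is stretched, and both act through the membrane guanylyl cyclase receptor Npr1 to promote sodium excretion, relax vessels and lower the load on the heart. In the adult heart the atria are the main source of atrial natriuretic peptide, while the working ventricle, which makes it before birth, holds little and makes it again under pressure load. Both transcripts are used as markers of ventricular hypertrophy and failure.

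Both genes lie on chromosome 5 on the plus strand of the RefSeq assembly GRCr8, with Nppb first and no other gene of the reference table between them. Their promoters are shown because the 2 neighbours are compared throughout. Each window runs from 250 bases before the annotated start to 50 bases from it, at chr5:163711934-163712233 for Nppa and at chr5:163699758-163700057 for Nppb. Capitals mark matches on either strand to 4 short elements. They are the basal promoter element TATAAA, the core GATAA that is bound by GATA factors of heart muscle, the core AAGTG that is bound by the cardiac factor Nkx2-5, and the element GGAATG that is bound by TEAD factors (M-CAT).
Nppa promoter: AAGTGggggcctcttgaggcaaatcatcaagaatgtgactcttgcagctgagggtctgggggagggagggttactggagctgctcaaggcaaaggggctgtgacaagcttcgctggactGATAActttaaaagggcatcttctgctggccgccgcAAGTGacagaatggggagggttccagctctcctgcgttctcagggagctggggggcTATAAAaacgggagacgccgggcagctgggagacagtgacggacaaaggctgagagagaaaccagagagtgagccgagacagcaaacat
Nppb promoter: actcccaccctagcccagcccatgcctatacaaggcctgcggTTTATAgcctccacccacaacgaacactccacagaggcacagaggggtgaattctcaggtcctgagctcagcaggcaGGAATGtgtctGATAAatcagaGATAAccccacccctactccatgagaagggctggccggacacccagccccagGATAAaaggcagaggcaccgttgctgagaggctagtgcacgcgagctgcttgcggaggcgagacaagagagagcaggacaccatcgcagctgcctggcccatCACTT
Nppa held TATAAA at position -39 from the start, GATAA at -131 and AAGTG at -250 and -95. Nppb held GATAA 3 times, at -120, -109 and -57, GGAATG at -131, and the reverse strand forms TTTATA at -208 and CACTT at 46. The letters TGANTCA (AP-1) and TCACAC (a T-box core) were not in these windows, and CANNTG (an E-box, not in capitals) was in both, in Nppa at -96 over AAGTG. Of the 33469 promoters of the same length in the table, 26.54% held GATAA on either strand, 46.16% AAGTG, 14.22% TATAAA, 14.19% GGAATG, 13.68% TCACAC, 7.33% TGANTCA and 72.1% CANNTG. GC content was 56.3% for Nppa and 58.3% for Nppb, against a median of 51.7% over all promoters. These matches are letters and not sites shown to be bound, and the sources used here do not name the build of the deposited files.

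The libraries held 17406473 to 27355777 estimated counts each. Every library had reads of both genes, from 5519 to 1667891 estimated counts for Nppa and from 561 to 50594 for Nppb. Levels are given in TPM, a share of all transcripts after scaling for their length, which allows the 2 genes to be compared within a library. The 10 most abundant genes held 41.8% to 71.4% of TPM in failing left ventricle libraries, 51.1% and 52.3% in the healthy ones, and 25.5% to 57.1% in node and atrial libraries. The healthy superior node library ST_0921 stood apart, with 57.1% of TPM in its 10 most abundant genes against 40.1% to 46.8% in the other healthy superior node libraries, and with the lowest level of Nppb in the series. Nothing in the labels says that the libraries of a group come from separate animals, so the p-values speak for the spread among these libraries, which may be technical. In whole tissue, fewer muscle cells and less RNA per cell cannot be told apart, and the labelled regions were not checked against marker genes because the files give no gene names.

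Both genes were higher in failing hearts in all 5 regions, but they did not move alike. Nppb was 3.22 to 5.32 times as high in failing as in healthy tissue by the fitted fold change, and its failing and healthy libraries did not overlap in any region. In CPM (counts scaled by library size with TMM) all failing libraries lay above all healthy ones for 22.5% of genes tested in the left atrium, 22.1% in the right atrium, 17.8% in the inferior node, 15.7% in the left ventricle and 12.6% in the superior node, and in all 5 regions at once for 4.32% of 13286 genes. Nppa was 1.51 to 2.06 times as high in the node parts and the atria and 29.4 times as high in the left ventricle. The increase passed the test for Nppa in both atria and for Nppb in both atria and the inferior node (edgeR's quasi-likelihood test, adjusted p under 0.05). Many genes passed in those regions, 47.5% of all genes tested in the right atrium, 48.2% in the left atrium, 38.5% in the inferior node and 13.5% in the superior node, so that passing does not set these 2 genes apart. In the left ventricle the same test called 0.0% of 13670 genes.

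**Figure D1:**
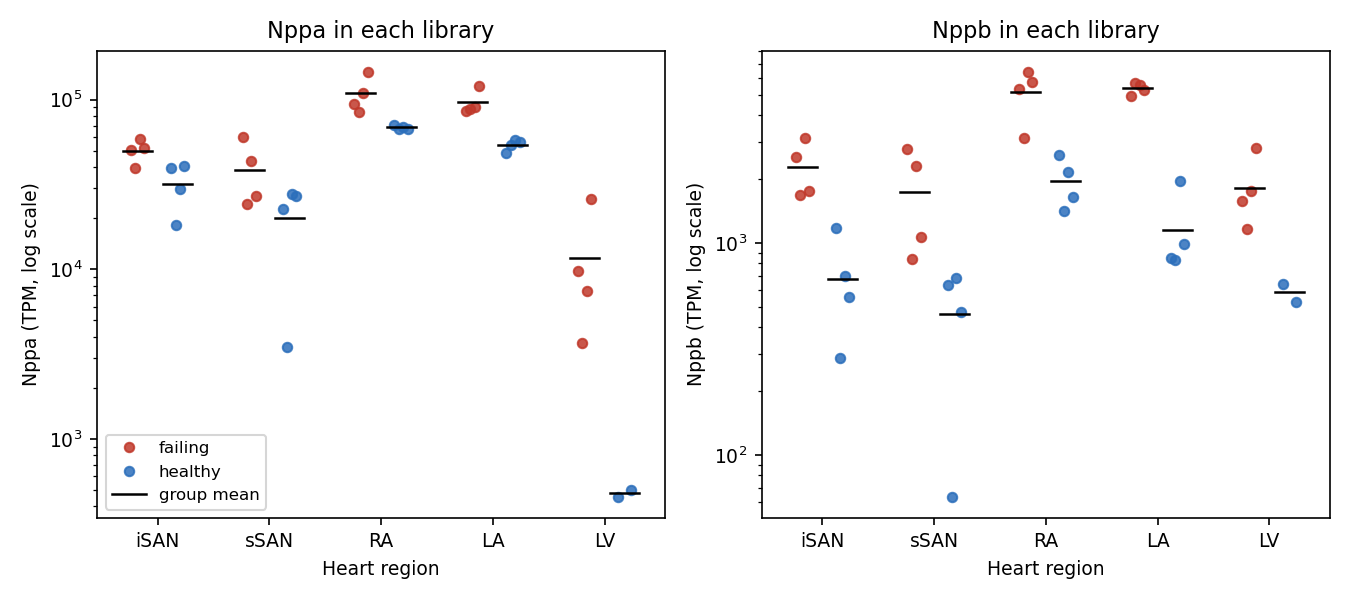
Level of Nppa (left) and Nppb (right) in TPM on a log scale in each of the 38 libraries, by heart region, with failing hearts in red left of healthy hearts in blue and a black line at each group mean. Failing and healthy libraries of Nppb are apart in every region, and Nppa in healthy left ventricle lies at 456 and 500 TPM, below all other libraries.

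In the left ventricle Nppa reached 9809, 3687, 7471 and 25830 TPM in the failing libraries, against 456 and 500 TPM in the healthy libraries. Every failing library lay above both healthy ones, and the failing libraries differed far more among themselves than the healthy pair did. The mean was 11699 ± 9753 TPM in failing (SD, n = 4) and 478 ± 31.5 TPM in healthy left ventricle (SD, n = 2). Nppa ranked between 7th and 25th among all genes by TPM in failing left ventricle, against 138th and 144th in healthy left ventricle. The log2 fold change was 4.88 ± 0.78 (SE), with a 95% interval of 3.05 to 6.71, and 34th from the top of 13670 genes. Its unadjusted p was 0.000388 and its adjusted p 0.226 in edgeR's quasi-likelihood test, so the gene did not pass over all genes. In this region edgeR called 0 genes, with 1510 at an unadjusted p under 0.05, whereas DESeq2 called 356 and limma on log2(TPM + 1) called 6. Nppa was among those called by both, with an adjusted p of 9.26e-15 in DESeq2 and 0.0407 in limma, while leaving out single libraries in edgeR gave adjusted p-values of 0.075 to 0.947. Limma did not call it on log2(TPM + 0.1) (adjusted p = 0.0937) or on log2(TPM + 1) after TMM (adjusted p = 0.0913).

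Nppb in the left ventricle stood at 1582, 1160, 1753 and 2788 TPM in the failing libraries, against 643 and 526 TPM in the healthy libraries. The groups did not overlap. The mean was 1821 ± 691 TPM in failing (SD, n = 4) and 585 ± 82.3 TPM in healthy left ventricle (SD, n = 2). The log2 fold change of 2.15 ± 0.55 (SE) had a 95% interval of 0.85 to 3.45 and did not pass, with an adjusted p of 0.362 in edgeR and of 0.0038 in DESeq2. The failing library LV_0507, in which 10 genes held 71.4% of TPM, stood differently by scale. It was near the middle of its group for both genes in TPM, whereas in CPM, the scale of the fit, it held 1569 for Nppb against 516 to 742 in the other failing libraries, and 10114 for Nppa, next to the highest. Without it the log2 fold changes were 4.66 for Nppa and 1.68 for Nppb.

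In the left atrium Nppa was at 85954, 88645, 90514 and 119895 TPM in the failing libraries, against 48439, 54277, 57963 and 55935 TPM in the healthy libraries. The groups were apart, and Nppa was the most abundant gene in every failing and the second most abundant in every healthy library. Nppa rose by 1.04 ± 0.19 on the log2 scale (SE, adjusted p = 0.00215 in edgeR's quasi-likelihood test). Nppb stood at 4933, 5646, 5545 and 5243 TPM in the same failing libraries, against 850, 831, 1946 and 987 TPM in the healthy ones. The failing libraries lay close together, and the highest healthy one, LA_1001, was still far under the lowest failing one. Nppb rose by 2.41 ± 0.29 on the log2 scale (SE, adjusted p = 0.000317 in edgeR's quasi-likelihood test), and it ranked 19th to 24th by TPM in failing against 46th to 92nd in healthy left atrium.

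In the right atrium Nppa was at 94749, 84911, 109685 and 145665 TPM in the failing libraries, against 71104, 67202, 69249 and 67091 TPM in the healthy libraries. Nppa was the most abundant gene of all 8 libraries, and its healthy libraries varied by 2.78% of their mean against 24.5% of the mean in the failing ones. It rose by 0.96 ± 0.24 on the log2 scale (SE, adjusted p = 0.00917 in edgeR's quasi-likelihood test), a call lost in 1 fit of all 38 libraries (adjusted p = 0.0574). Nppb stood at 5315, 3111, 6389 and 5724 TPM in the same failing libraries, against 2606, 1405, 2168 and 1648 TPM in the healthy ones. The lowest failing library, RA_0506, lay just above the highest healthy one, RA_0920. Nppb rose by 1.69 ± 0.30 on the log2 scale (SE, adjusted p = 0.00185 in edgeR's quasi-likelihood test).

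In the inferior node, the lower part of the pacemaker tissue, Nppa was at 50578, 39428, 58766 and 51542 TPM in the failing libraries, against 39716, 18233, 29795 and 40375 TPM in the healthy libraries. The groups overlapped, and the difference of 0.59 ± 0.29 on the log2 scale (SE) did not pass (adjusted p = 0.14 in edgeR's quasi-likelihood test, 95% interval -0.07 to 1.25). Nppb stood at 2543, 1682, 3104 and 1764 TPM in the same failing libraries, against 1174, 287, 695 and 556 TPM in the healthy ones. These groups were apart, with SB_0921 lowest among the healthy libraries for both genes. Nppb rose by 1.72 ± 0.41 on the log2 scale (SE, adjusted p = 0.0119 in edgeR's quasi-likelihood test).

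In the superior node Nppa was at 59924, 24402, 43594 and 26860 TPM in the failing libraries, against 22630, 3489, 27610 and 26901 TPM in the healthy libraries. The groups overlapped, with 2 failing libraries level with the upper healthy ones. The difference of 0.82 ± 0.52 on the log2 scale (SE, 95% interval -0.35 to 1.98) did not pass (adjusted p = 0.303 in edgeR's quasi-likelihood test). Nppb stood at 2780, 842, 2291 and 1063 TPM in the same failing libraries, against 631, 63.6, 679 and 474 TPM in the healthy ones. These groups were apart, and the healthy library ST_0921 was the lowest for both genes, with Nppb ranking 873rd of all genes. The difference of 1.78 ± 0.60 on the log2 scale (SE, 95% interval 0.44 to 3.12) missed the threshold at an adjusted p of 0.0755 in edgeR's quasi-likelihood test and passed in DESeq2 at 0.0444. Without ST_0921 the log2 differences were 0.48 for Nppa (adjusted p = 0.341) and 1.43 for Nppb (adjusted p = 0.0614 in edgeR).

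**Figure D2:**
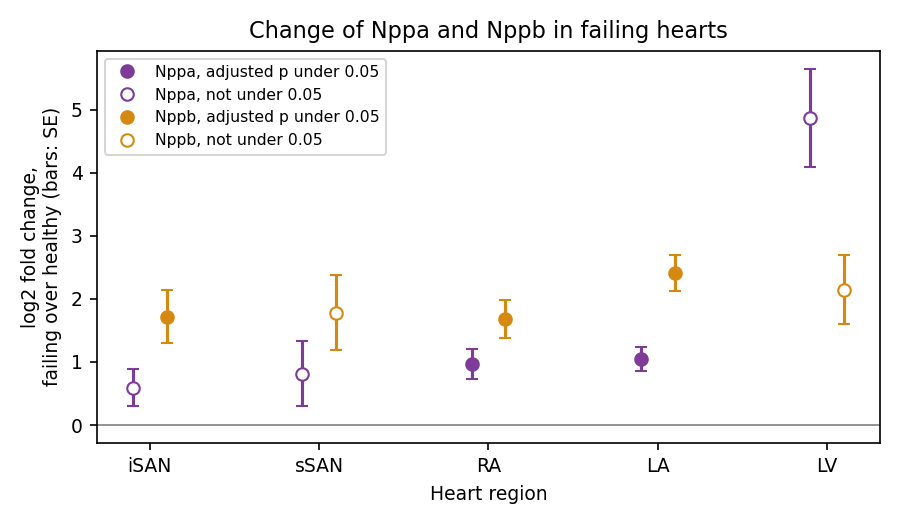
Log2 fold change of failing over healthy hearts for Nppa (purple) and Nppb (orange) in each region, with bars of 1 standard error from edgeR. Filled points have an adjusted p under 0.05 and open points do not. Nppb lies between 1.69 and 2.41 in all regions, while Nppa lies between 0.59 and 1.04 outside the left ventricle and at 4.88 in it.

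Whether the change differed between regions was tested directly, as the difference of the 2 log2 fold changes. For Nppa the change in the left ventricle exceeded that in the left atrium by 3.86 ± 0.63 (SE, adjusted p = 0.0416 in edgeR), in a comparison in which 0.114% of all genes passed. The code as a replicate block gave 3.80 with an adjusted p of 0.43, in a fit that called 1 of 14925 genes. By the pairing rule given below, the codes did not pair these chambers in either state. Without the block, leaving out single libraries gave 3.60 to 4.12. The call was lost without any 1 of the 8 left atrial libraries (adjusted p from 0.057 to 0.108), without LV_1001 (0.323) or without LV_1002 (0.472). Against the other regions the left ventricular change of Nppa was larger by 3.94 ± 0.67 for the right atrium (adjusted p = 0.0772), by 4.32 ± 0.71 for the inferior node (adjusted p = 0.0792) and by 4.07 ± 0.93 for the superior node (adjusted p = 0.428), none of which passed over all genes. The right atrial difference passed without LV_0506 (adjusted p = 0.0195) or LV_0507 (0.0474), and the inferior node difference without LV_0506 (0.0394). The shares of all genes that passed there were 0.0474%, 0.00661% and 0.00664% in that order. The unadjusted 95% intervals of these 3 differences, 2.5 to 5.39, 2.8 to 5.85 and 2.08 to 6.06, each lay above 0.

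For Nppb no such difference passed. Its left ventricular change differed from that in the left atrium by -0.23 ± 0.56 (SE, adjusted p = 0.974 in edgeR), with a 95% interval of -1.44 to 0.98, from that in the right atrium by 0.50 ± 0.59, from that in the inferior node by 0.47 ± 0.69 and from that in the superior node by 0.38 ± 0.88. Between the left and the right atrium the change differed by 0.08 ± 0.30 for Nppa (95% interval -0.56 to 0.71) and by 0.72 ± 0.43 for Nppb (95% interval -0.2 to 1.64), where 0.171% of all genes passed. Between the left atrium and the inferior node it differed by 0.49 for Nppa and by 0.72 for Nppb, with 0.932% of genes passing, and between the left atrium and the superior node by 0.25 for Nppa and by 0.66 for Nppb, with 0.652% passing. Between inferior node and right atrium, where 0.0203% of genes passed, it differed by -0.36 for Nppa and by 0.05 for Nppb. Between superior node and right atrium it differed by -0.13 for Nppa and by 0.12 for Nppb, and between the superior and the inferior node by 0.22 for Nppa and by 0.06 for Nppb. Adjusted p-values of these 12 differences between the atria and node parts lay between 0.569 and 0.997 in edgeR. In the last 2 comparisons 0.0% of all genes passed in edgeR, with 1666 and 598 genes at an unadjusted p under 0.05, 135 and 0 genes called by DESeq2, and 9 and 0 by limma on log2(TPM + 1). The signs of several of these small differences turned under other scalings or with 1 library left out.

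The balance of the 2 transcripts also differed between failing and healthy hearts, with Nppb gaining on Nppa in the left atrium and both node parts and the opposite order in the left ventricle. In the left atrium there were 17.4, 15.7, 16.3 and 22.9 Nppa transcripts per Nppb transcript in the failing libraries, against 57.0, 65.3, 29.8 and 56.7 in the healthy libraries. In the inferior node the ratio was 19.9, 23.4, 18.9 and 29.2 in failing libraries, against 33.8, 63.4, 42.9 and 72.6 in healthy ones. In the superior node it was 21.6, 29.0, 19.0 and 25.3 in failing libraries, against 35.9, 54.9, 40.6 and 56.8 in healthy ones. Failing and healthy libraries did not overlap in these 3 regions. The mean log2 ratio of Nppb to Nppa was higher in failing than in healthy libraries by 1.49 in the left atrium, by 1.17 in the inferior node and by 0.98 in the superior node, each with an exact permutation p of 0.0286, the smallest that 4 against 4 libraries can give, and an adjusted p of 0.0476 over the 5 regions. With any 1 failing library of the left atrium or the inferior node left out, its adjusted p was 0.0667.

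In the right atrium the Nppa to Nppb ratio was 17.8, 27.3, 17.2 and 25.4 in failing libraries, against 27.3, 47.8, 31.9 and 40.7 in healthy ones. The highest failing library, RA_0506, met the lowest healthy one, RA_0920, and the log2 ratio of Nppb to Nppa, higher by 0.75 in failing libraries, did not pass (exact permutation p = 0.0571, adjusted p = 0.0667). Without RA_0920 it was 0.88 and passed (exact permutation, adjusted p = 0.0357). In the left ventricle the ratio of Nppa to Nppb was 6.20, 3.18, 4.26 and 9.26 in failing libraries, against 0.709 and 0.951 in healthy ones. By TPM, Nppb transcripts thus outnumbered those of Nppa in both healthy left ventricle libraries and in no other library of the series. In estimated counts Nppa was the higher in both, at 5519 and 5551 against 5147 and 3862 for Nppb. That order therefore depends on the length scaling of TPM. The log2 ratio of Nppb to Nppa was lower by 2.69 in failing than in healthy left ventricle (exact permutation p = 0.0667, the smallest that 4 against 2 libraries can give, adjusted p = 0.0667), so the design could not reach 0.05 there. The difference between the left ventricle and the other regions in this ratio was not tested beyond the differences of fold change above.

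**Figure D3:**
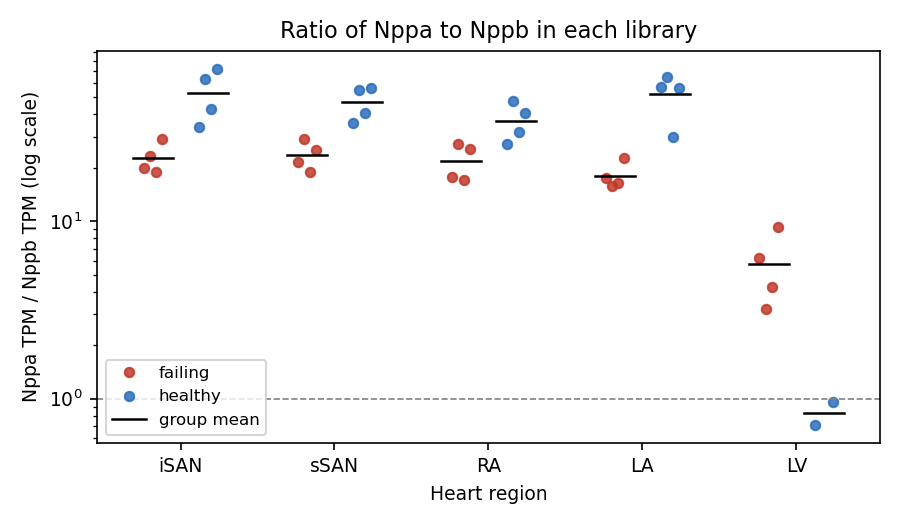
Nppa TPM divided by Nppb TPM in each library on a log scale, by region, with failing hearts in red left of healthy hearts in blue and black lines at group means. A dashed line marks equal levels, and 2 libraries, both of healthy left ventricle, lie under it at 0.709 and 0.951, while failing libraries lie lower than healthy ones in the nodes and the left atrium.

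As a share of all transcripts, Nppa took 10.9% ± 2.66 of TPM in failing and 6.87% ± 0.191 in healthy right atrium (SD, n = 4 each). In the left atrium it took 9.63% ± 1.59 of TPM in failing and 5.42% ± 0.410 in healthy hearts (SD, n = 4 each). Both differences had an exact permutation p of 0.0286, the smallest possible, and an adjusted p of 0.0476 over 5 regions and 2 genes. The share of Nppa was 5.01% ± 0.799 in failing and 3.20% ± 1.04 in healthy inferior node (exact permutation, adjusted p = 0.122), and 3.87% ± 1.65 in failing and 2.02% ± 1.13 in healthy superior node (exact permutation, adjusted p = 0.19). Nppb, though nowhere above 1% of TPM, had a larger share in failing tissue in the 4 regions other than the left ventricle, each at an adjusted p of 0.0476 by exact permutation. With any 1 healthy library left out, adjusted p-values were 0.0952 for both genes in the right atrium and 0.122 to 0.163 for Nppb in the superior node. The share of Nppa in the inferior node passed without iSAN0506 (exact permutation, adjusted p = 0.0408). The share of Nppb was 0.534% ± 0.0322 in failing and 0.115% ± 0.0533 in healthy left atrium (SD, n = 4 each), and 0.182% ± 0.0691 in failing (SD, n = 4) and 0.0584% ± 0.0083 in healthy left ventricle (SD, n = 2). For the left ventricle the exact permutation gave a p of 0.2 for the share of Nppa and 0.133 for that of Nppb. The smallest p that 4 against 2 libraries can give is 0.0667, so neither could reach 0.05.

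The order of the regions was the same in both states for Nppa, with mean TPM falling in the order right atrium, left atrium, inferior node, superior node and left ventricle. For Nppb it was left atrium, right atrium, inferior node, left ventricle and superior node in failing hearts, and right atrium, left atrium, inferior node, left ventricle and superior node in healthy ones. No pair of neighbours in these orders passed over its 4 neighbours (exact permutation of log2 TPM, adjusted p from 0.0572 to 0.914). The lowest of these adjusted p-values, 0.0572, belonged to Nppa in healthy hearts, in the right against the left atrium and in the left atrium against the inferior node. Pairs at the smallest possible p, 0.0286 for 4 against 4 libraries, had adjusted p-values of 0.0572 to 0.114 (exact permutation). With healthy left ventricle the smallest p was 0.0667, so no such pair could pass. Nppa in healthy superior node lay 5.03 above the left ventricle in log2 TPM, at that smallest p. On the scale of log2 CPM the left ventricle came before the inferior node for Nppb in both states, by 0.97 in failing and 0.76 in healthy hearts.

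The left ventricle and the left atrium were compared within each state, since the contrast between chambers is the best known feature of Nppa. In healthy hearts Nppa was 66.3 times lower in the left ventricle than in the left atrium, a log2 difference of -6.05 ± 0.18 (SE, adjusted p = 3.17e-09 in edgeR's quasi-likelihood test), in a comparison in which 43.5% of genes passed. In failing hearts the difference was -2.24 ± 0.48 (SE, adjusted p = 0.0209), with 10.8% of genes passing, and without LV_0409, LV_0506, LA_0506 or LA_0508 it was -1.97 to -2.30 at adjusted p-values of 0.0504 to 0.0583. Nppb differed between these chambers by -0.50 ± 0.37 in failing hearts (adjusted p = 0.431, 95% interval -1.33 to 0.33) and by -0.22 ± 0.45 in healthy ones (adjusted p = 0.727, 95% interval -1.39 to 0.94). Without the failing library LV_0507 the difference of Nppb in failing hearts was -0.99 (adjusted p = 0.0202). On log2(TPM + 1), where the median over all genes was itself -0.70, it was -1.62 (adjusted p = 0.00589 in limma). In healthy hearts the left atrial library LA_1001, the highest of its group, turned the sign for Nppb when left out, to 0.16. With the code as a replicate block the healthy difference of Nppb was -0.53 and passed (adjusted p = 0.0264 in edgeR). Only 2 codes are shared there, with correlations of 0.081 and 0.211, so the pairing rule given below was not met.

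The atria were compared with each other. In failing hearts the left minus the right atrium was -0.23 ± 0.28 on the log2 scale for Nppa (SE, adjusted p = 0.888 in edgeR, 95% interval -0.87 to 0.41) and -0.00 ± 0.26 for Nppb (95% interval -0.59 to 0.58), with 0.311% of genes passing. In healthy hearts it was -0.31 ± 0.09 for Nppa (SE, adjusted p = 0.0524) and -0.73 ± 0.37 for Nppb (adjusted p = 0.327), with 9.14% of genes passing. The codes pair these healthy libraries, and with the code as a replicate block the difference of Nppa was -0.31 at an adjusted p of 0.00187. Without the block it passed when LA_1001 (adjusted p = 0.0387) or RA_0921 (adjusted p = 0.0428) was left out.

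Both node parts held less of either transcript than the right atrium beside them, with Nppa in the healthy superior node just short of the threshold without the replicate block. In failing hearts the inferior node minus the right atrium was -1.49 ± 0.36 on the log2 scale for Nppa (SE, adjusted p = 0.0217 in edgeR) and -1.52 ± 0.37 for Nppb (adjusted p = 0.0229), with 19.0% of genes passing. In healthy hearts it was -1.10 ± 0.19 for Nppa (adjusted p = 0.00407) and -1.54 ± 0.39 for Nppb (adjusted p = 0.0347), with 17.6% passing. The superior node minus the right atrium was -1.61 ± 0.34 for Nppa (adjusted p = 0.0215) and -1.68 ± 0.40 for Nppb (adjusted p = 0.0361) in failing hearts, with 8.28% of genes passing. In healthy hearts it was -1.74 ± 0.54 for Nppb (adjusted p = 0.047) and -1.42 ± 0.46 for Nppa (adjusted p = 0.0518), with 23.2% passing, and with the code, which pairs these libraries, as a replicate block Nppa passed at -1.68 (adjusted p = 0.0341). The codes pair the libraries of all these comparisons, and with the code as a replicate block each difference passed. Adjusted p-values were then 0.00183 to 0.0341 for Nppa and 0.00017 to 0.0196 for Nppb (edgeR). Without the block, single libraries decided many of these calls, and with it none was left out. In the failing inferior node the call of Nppa was lost without iSAN0506, iSAN0507, iSAN0508 or RA_0507 (adjusted p from 0.0519 to 0.0622), and that of Nppb without iSAN0506, iSAN0508 or RA_0507 (0.0583 to 0.0654). In the healthy inferior node the call of Nppb was lost without RA_0920, RA_1001, RA_1002, SB_0921, SB_1001 or SB_1002 (0.063 to 0.0942), while that of Nppa held. In the failing superior node the call of Nppa was lost without sSAN0506, sSAN0508 or RA_0507 (0.0561 to 0.061), and that of Nppb without sSAN0506, sSAN0508, RA_0409, RA_0507 or RA_0508 (0.0681 to 0.0966). In the healthy superior node Nppb was lost without any 1 of the 4 right atrial libraries, ST_0920 or ST_1002 (0.0673 to 0.107), and Nppa passed without ST_0921 (-1.11, adjusted p = 0.00176) or ST_1001 (-1.71, adjusted p = 0.0373). The log2 differences kept their sign in each of these fits.

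The node parts did not differ from each other beyond their spread. The superior minus the inferior node was -0.12 ± 0.34 on the log2 scale for Nppa (SE, 95% interval -0.88 to 0.64) and -0.16 ± 0.41 for Nppb (95% interval -1.09 to 0.78) in failing hearts. In that comparison 0.0% of 14368 genes passed in edgeR, with 1130 genes at an unadjusted p under 0.05, while DESeq2 called 41 and limma on log2(TPM + 1) 4. In healthy hearts it was -0.32 ± 0.49 for Nppa (95% interval -1.42 to 0.78) and -0.19 ± 0.62 for Nppb (95% interval -1.61 to 1.23), with 0.00698% of genes passing.

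Libraries of some codes shared their place across regions, and those of others did not. The failing libraries with the code of LV_0506 were the lowest of their groups for Nppa in 4 of 5 regions by TPM and in all 5 by log2 CPM. For Nppb they were the lowest in 4 of 5 regions on either scale, but in the left atrium LA_0506 was the highest by TPM and the lowest by log2 CPM, and in the left ventricle LV_0506 was the lowest by TPM and LV_0409 by log2 CPM. Those with the code of LV_0508 were the highest for Nppa in both atria on either scale, and in the left ventricle by TPM. Among healthy hearts the code of ST_0921 was the lowest for Nppb in all 4 regions it covered on either scale. For Nppa it was the lowest in both node parts on either scale, and by log2 CPM also in the right atrium. Other codes stood at both ends for Nppa by TPM. The code of LA_0409 was lowest in the left atrium and highest in the superior node. That of LA_0920 was lowest in the left and highest in the right atrium. The code of LA_1001 was lowest in the left ventricle and highest in the left atrium and superior node. That of LA_1002 was lowest in the right atrium and highest in the left ventricle and inferior node. Since libraries of 1 code may not be independent, the 4 regions with all 8 codes were also averaged per code. The mean log2 CPM of Nppa was 15.10, 14.49, 15.12 and 15.06 in the failing codes, against 14.19, 13.39, 14.27 and 14.29 in the healthy codes. That of Nppb was 10.25, 9.35, 10.37 and 9.78 in the failing codes, against 8.39, 6.95, 8.51 and 7.89 in the healthy ones. All failing codes lay above all healthy ones for both genes, as they did for 26.0% of 15770 genes. The difference was 0.91 for Nppa and 2.0 for Nppb on the log2 scale, each with an exact permutation p of 0.0286, the smallest that 4 against 4 codes can give. With any 1 healthy code left out the exact permutation p for Nppa was 0.0571, and without the code of ST_0921 its difference was 0.69.

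Across all 38 libraries the log2 CPM of Nppa and Nppb had a Pearson r of 0.535, which mixes regions and states. After each group's mean was taken away, r was 0.832, and the deviations had the same sign in 29 of 38 libraries. Among 12088 genes, Nppb was then the 3rd most like Nppa, and Nppa the 2nd most like Nppb. By Spearman's rho these places were 5th and 7th, and on log2(TPM + 1) they were 8th and 2nd. With the group means left in, they were 712th and 1506th by Pearson r. The points share libraries, codes and the scaling of each library, and the healthy superior node library ST_0921 lay farthest out for both genes. Without it, an alternative chosen after the values were seen, r was 0.713 over 37 libraries, and the places among all genes were not taken again.

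**Figure D4:**
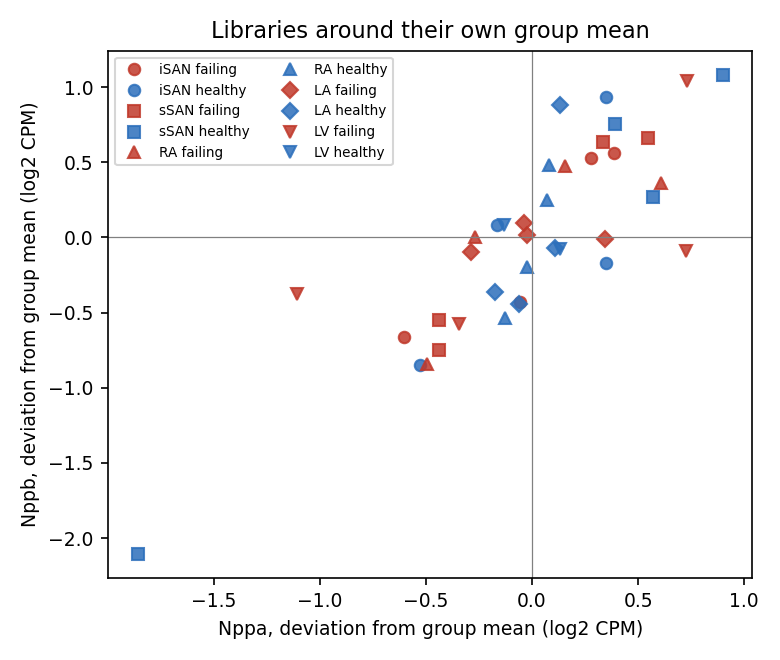
Deviation of each library from its own group mean in log2 CPM, for Nppa on the horizontal and Nppb on the vertical axis, with failing hearts in red, healthy hearts in blue and 1 symbol per region. The 38 points run along a rising line with r = 0.832, and the lowest point at the left is the healthy superior node library ST_0921.

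The genes whose level followed each of the 2 most closely were others. Over all libraries the gene most like Nppa was ENSRNOG00000028822 with r = 0.878, and 0 genes exceeded 0.9. It averaged 22.8 TPM in failing and 11.3 TPM in healthy left ventricle, 51.9 TPM in failing and 44.3 TPM in healthy left atrium, and 55.2 TPM in failing and 48.9 TPM in healthy right atrium. By Spearman's rho it was at 0.69 and ranked 214th, so its place depends on the measure of likeness. The gene most like Nppb was ENSRNOG00000010992 with r = 0.909. By Spearman's rho it was at 0.88 and ranked 15th, with ENSRNOG00000001009 highest at 0.924, and on log2(TPM + 1) it ranked 2nd. It averaged 89.0 TPM in failing and 53.5 TPM in healthy left atrium, 76.8 TPM in failing and 50.8 TPM in healthy right atrium, and 49.4 TPM in failing and 23.9 TPM in healthy left ventricle. Within groups the highest r of another gene was 0.855 for Nppa and 0.834 for Nppb.

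Nearly all of each gene's TPM came from 1 transcript. ENSRNOT00000011005.6 held 99.8% to 99.98% of Nppa across the 38 libraries. ENSRNOT00000010779.6 held 98.3% to 99.9% of Nppb. The changes described for each gene are therefore those of its main transcript.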

How the data were processed

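Per the submitters' processing notes, Trimmomatic 0.39 trimmed the reads and kallisto 0.48.0 estimated transcript abundance. The deposited gene tables hold estimated counts, already scaled for transcript length, and TPM. Genome build and annotation are not named in the sources.

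Both genes were taken by Ensembl gene ID. Estimated counts were rounded, filtered with filterByExpr (count minimum 10, total minimum 15), scaled with TMM and tested in edgeR 4.0.16 (robust quasi-likelihood), fitted to all genes of the groups compared. Adjustment followed Benjamini and Hochberg, with 0.05 as the threshold. Single values used exact two-sided permutation tests. Alternatives were DESeq2 1.42.0, its size factors in edgeR, no filter, limma 3.58.1 on log2(TPM + 1) and log2(TPM + 0.1), TMM on TPM, 1 fit of all 38 libraries, the 10 most abundant genes left out of library sizes, each library left out in turn, and a replicate block by code. Scripts were tested on simulated data.

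The pairing rule asks for a correlation of same-coded libraries' deviations over 0.1 in every pair, with 3 or more pairs. By it the codes pair the node parts with the right atrium in both states, the atria in healthy hearts and the node parts in failing hearts (0.17 to 0.63). The members, lists and tests were chosen with earlier results of these data known. Lists of the natriuretic pathway, of cardiac regulators, of fetal genes and of cell type markers go by symbol and were not applied, because 0 reference rows matched a file ID. The rule for other genes was the highest Pearson r among genes with a mean log2 CPM of at least 1. Sequences come from RefSeq (GRCr8).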

Additional observations from a re-analysis of the deposited data

Results flagged for a closer look

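In the left atrium of failing hearts the library LA_0508 held 119895 TPM of Nppa, well above the 85954 to 90514 TPM of the other 3 libraries, and was far from them by Dixon's test. The healthy left atrium library LA_1001 held 1946 TPM of Nppb, against 831 to 987 TPM in the other 3, and was far from them by the same test. These were 2 flags in 27 checks of values within a group, and chance flags about 1 in 20. The series has 10 groups, so the checks share libraries. The effect of health state on Nppa was larger in the left ventricle than in the left atrium by 3.86 on the log2 scale (adjusted p = 0.0416 in edgeR), a tested difference between regions that rests on 2 healthy left ventricle libraries.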

How the results depend on the processing

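Values are log2 differences of the first region or state minus the second. No fold change of failing over healthy hearts changed sign under any alternative tried, and leaving out single libraries changed none of their calls. With DESeq2, changes passed for Nppa (4.88) and Nppb (2.16) in the left ventricle, for Nppb in the superior node (1.76), for Nppa in healthy left against right atrium (-0.31) and in healthy superior node against right atrium (-1.44, also -1.44 with its size factors in edgeR), and for the left ventricular effect on Nppa against that in the right atrium (3.93), inferior node (4.32) and superior node (4.10). In 1 fit of all 38 libraries the same results passed (4.88, 2.16, 1.79, -1.46, 3.92, 4.25 and 4.05) except the atria, while Nppa was lost in the right atrium (0.96) and in healthy inferior node against right atrium (-1.14). With no filter, Nppa passed between healthy atria (-0.31), and Nppb was lost in the healthy inferior (-1.55) and superior node (-1.74) against the right atrium.

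On log2(TPM + 1), Nppa passed in the left ventricle (4.26), in the left ventricular against the right atrial effect (3.62), between healthy atria (-0.35) and in healthy superior node against right atrium (-2.14), and Nppb in failing left ventricle against left atrium (-1.62). On log2(TPM + 0.1) the values that passed were -0.35, -2.14 and -1.62 for the last 3. On both TPM scales the sign turned for Nppb between failing atria (0.11 and 0.11), and for differences of effect of Nppa in left atrium against superior node (-0.40 and -0.40), inferior node against right atrium (0.065 and 0.065) and superior node against right atrium (0.58 and 0.58), and of Nppb in left ventricle against inferior (-0.30 and -0.30) and superior node (-0.62 and -0.62). After TMM on TPM, Nppa passed between healthy atria (-0.31), in healthy superior node against right atrium (-1.76) and in left ventricular against right atrial (3.78) and inferior node effects (4.08). Signs turned there for Nppa in the effects of left atrium against superior node (-0.021) and superior node against right atrium (0.13), and for Nppb in left ventricle against superior node (-0.037) and between failing atria (0.071). On log2 CPM the left ventricle came above the inferior node for Nppb (-0.97 in failing, -0.76 in healthy hearts, inferior node minus left ventricle).

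With the replicate block, differences passed for Nppa between healthy atria (-0.31) and in healthy superior node against right atrium (-1.68). For Nppb the healthy left ventricle against left atrium passed (-0.53), where only 2 codes are shared, too few for the pairing rule. The left ventricular against left atrial effect on Nppa was lost (3.80), though the codes do not pair these chambers by that rule. Signs turned for Nppb between failing atria (0.074) and for Nppa in the effect of superior node against right atrium (0.13). The block changed no other call. The correlation of deviations was 0.71 without 1 library.

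With single libraries left out, calls or signs changed in these ranges. Nppa lay between -0.38 and 0.0080 in failing and between -0.35 and -0.25 in healthy left against right atrium, between -2.48 and -1.97 in failing left ventricle against left atrium, between -1.63 and -1.25 in failing inferior node against right atrium, and between -1.81 and -1.37 in failing and -1.71 and -1.11 in healthy superior node against right atrium. Between the node parts it lay between -0.32 and 0.016 in failing and between -0.60 and 0.0049 in healthy hearts. Nppb lay between -0.22 and 0.15 between failing atria, between -0.99 and -0.31 in failing and -0.37 and 0.16 in healthy left ventricle against left atrium, between -1.73 and -1.33 in failing and -1.94 and -1.32 in healthy inferior node against right atrium, between -1.90 and -1.47 in failing and -2.08 and -1.41 in healthy superior node against right atrium, and between -0.38 and 0.050 in failing and -0.53 and 0.21 in healthy superior against inferior node. Differences of effect on Nppa ranged from 3.60 to 4.12 (left ventricle against left atrium), 3.70 to 4.20 (right atrium), 4.01 to 4.51 (inferior node), -0.072 to 0.31 (left against right atrium), -0.026 to 0.59 (left atrium against superior node), -0.51 to 0.12 (superior node against right atrium) and -0.13 to 0.47 (superior against inferior node). For Nppb they ranged from -0.086 to 0.69 (left ventricle against inferior node), -0.11 to 0.73 (superior node), -0.22 to 0.45 (inferior node against right atrium), -0.29 to 0.39 (superior node against right atrium) and -0.35 to 0.36 (superior against inferior node). The log2 ratio of Nppb to Nppa was higher in failing hearts by 1.00 to 1.37 (inferior node), 0.61 to 0.88 (right atrium) and 1.36 to 1.74 (left atrium). The share of Nppa was higher by 1.35 to 2.16 (inferior node) and 2.78 to 4.80 percentage points (right atrium), that of Nppb by 0.0937 to 0.158 (superior node) and 0.276 to 0.385 (right atrium), and the mean of Nppa per code by 0.69 to 1.06. With any 1 code left out, the exact permutation p of the mean of Nppb per code stayed at 0.0286. Leaving out 1 of 4 against 4 thus did not raise the smallest p.

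The causes of these changes were not tested. The left ventricle had 2 healthy libraries, which limits every comparison that uses it.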
